A study of Mus musculus with 7 samples.

Results

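The 9 genes Dlx1, Dlx2, Dlx5, Dlx6, Gad1, Gad2, Slc32a1, Lhx6 and Gsx2 mark the lineage of GABA-releasing neurons of the forebrain. All 9 were measured, each by 1 probe set, among the 19938 genes with a probe set that carries a single gene symbol. They were chosen by name with their levels in these arrays already known, so their levels and differences are given as a description and without a test. The arrays hold RNA of cells from the cerebral cortex of C57BL/6 mouse embryos, isolated by their green fluorescence 24 h after electroporation on embryonic day 13, at embryonic day 14. In 3 samples the construct was for the knockdown of Trnp1, which encodes a nuclear protein (genotype label Trnp1 knockdown), and 4 samples were controls (genotype label WT). Both groups carried green fluorescent protein as a transfection marker. The type of knockdown construct, the promoter that drives it and the number of embryos per sample are not given in the sources used here, so p-values measure the spread between samples labelled as biological replicates. The median log2 value of an array was 4.40 to 4.61, and pairs of arrays correlated at 0.937 to 0.976.

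In the forebrain, GABA neurons arise in the ganglionic eminences below the cortex, from where interneurons migrate tangentially into it, while dorsal progenitors of the mouse cortex make glutamatergic neurons. The homeobox factor Gsx2 specifies progenitors of the lateral ganglionic eminence and acts ahead of the Dlx factors. Dlx1 and Dlx2 lie side by side in the genome, as do Dlx5 and Dlx6, and Dlx1 and Dlx2 precede Dlx5 and Dlx6 in the lineage. Their targets include Gad1 and Gad2, which encode the enzymes that make GABA, and the neurons load it into vesicles with the transporter encoded by Slc32a1.

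Most of the genes were higher in the knockdown samples, and 1 array, knockdown replicate 2, held by far the largest part of that difference. In this array Dlx5, Dlx1 and Dlx2 exceeded the control mean 16.6-fold, 16.2-fold and 10.5-fold, and Dlx6, Gad2 and Gsx2 4.64-fold, 4.46-fold and 4.28-fold. Slc32a1 and Lhx6 exceeded it 1.69-fold and 1.55-fold, and Gad1 1.19-fold. Knockdown replicates 1 and 3 had smaller elevations, clearest for Dlx5. Because this array stands apart for these genes, each difference is given with and without it. In sorted cells measured in bulk, a change in the share of GABA lineage cells and a change in RNA per cell cannot be told apart.

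In knockdown replicate 1, Dlx5 exceeded its control mean 3.11-fold, Dlx6 1.88-fold, Dlx1 1.67-fold, Gad2 1.47-fold and Dlx2 1.43-fold, and Gad1 and Lhx6 were below theirs. In knockdown replicate 3, Dlx5 exceeded it 1.65-fold, Gad2 1.42-fold, Gsx2 1.36-fold, Slc32a1 1.33-fold and Dlx6 1.26-fold, while Dlx1 and Dlx2 were within 1.08-fold. Dlx5 was thus the gene farthest above its control mean in each of the 3 knockdown arrays.

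The median log2 difference of the 9 genes, knockdown minus control, was 1.07 over all arrays and 0.31 without knockdown replicate 2, against -0.001 and 0.008 over all 19938 genes. All 9 differences were above 0 over all arrays, and 49.8% of all genes had a difference above 0. Without knockdown replicate 2, 7 of the 9 remained above 0, and Gad1 and Lhx6 did not. The groups did not overlap for 5 of the 9 genes, Dlx5, Dlx6, Gad2, Slc32a1 and Gsx2, all higher in knockdown samples, against 2.59% of all genes (3.07% were lower without overlap). Without knockdown replicate 2 the same 5 genes did not overlap, against 9.73% of all genes. Groups that are apart over all arrays stay apart when an array is left out, so this is no separate check. As the genes were chosen on this contrast, nothing is read from these shares.

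**Figure D1:**
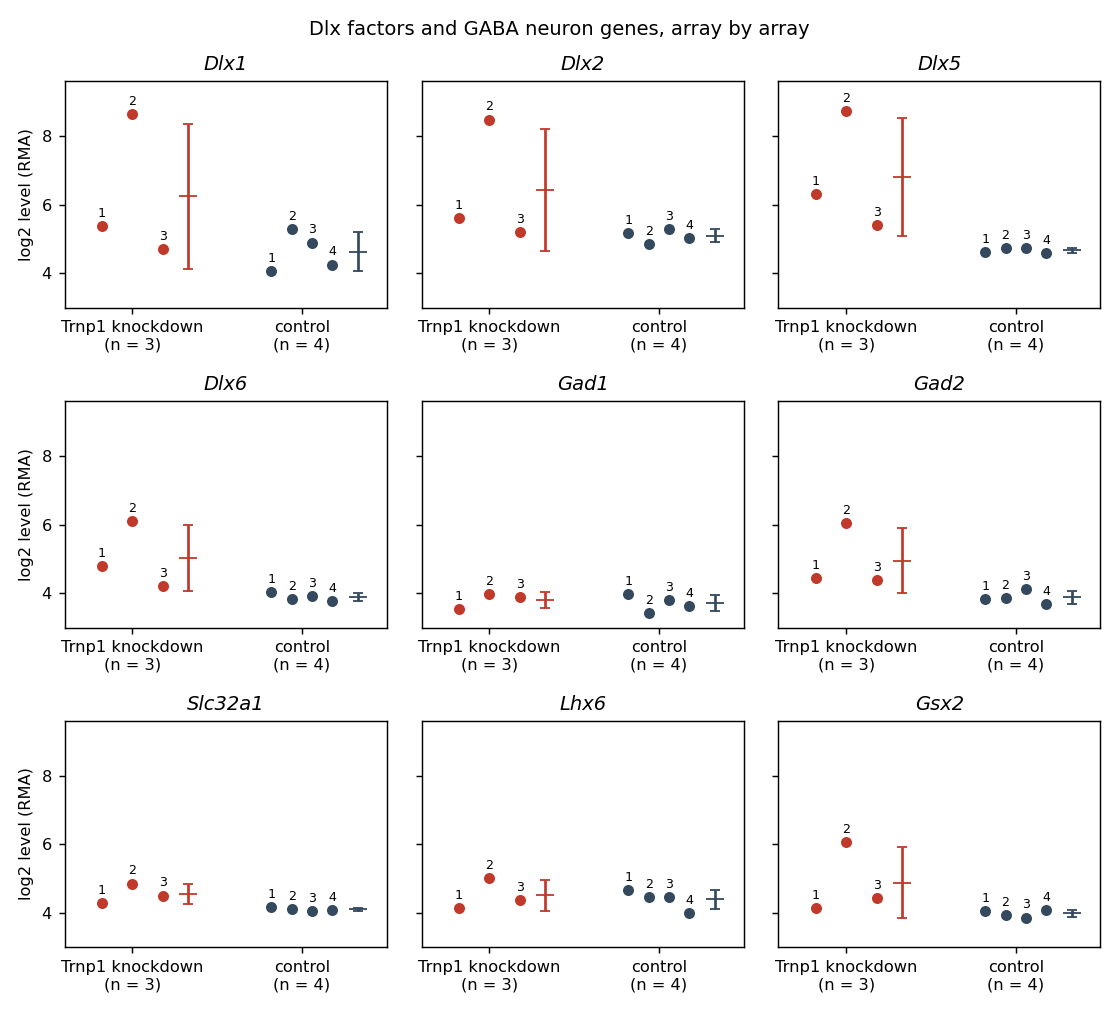
Log2 level of each of the 9 genes in the 3 Trnp1 knockdown arrays (red, left) and the 4 control arrays (dark, right), with the replicate number above each point and the mean and SD beside each group. Knockdown replicate 2 stands at 8.65 for Dlx1, 8.48 for Dlx2 and 8.73 for Dlx5, while no control array exceeds 5.30 for these genes, and Gad1 shows no such elevation.

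Gsx2 (Entrez 14843), the progenitor factor, had log2 levels of 4.15, 6.08 and 4.43 in knockdown replicates 1, 2 and 3, against 4.05, 3.94, 3.87 and 4.09 in control replicates 1 to 4. Replicate 2 was high, and replicates 1 and 3 also lay above the highest control, replicate 1 only just. The difference was 0.90 (SE 0.43) over all arrays and 0.30 (SE 0.14) without knockdown replicate 2.

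Dlx1 (Entrez 13390) had log2 levels of 5.38, 8.65 and 4.71 in the knockdown arrays, against 4.07, 5.30, 4.90 and 4.26 in the controls. The controls themselves spread over 1.23 log2 units, and knockdown replicate 3 lay among them. The difference was 1.61 (SE 0.89), and 0.41 (SE 0.39) without knockdown replicate 2, about its SE.

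Dlx2 (Entrez 13392), its neighbour, had log2 levels of 5.61, 8.48 and 5.20 in the knockdown arrays, against 5.18, 4.87, 5.30 and 5.02 in the controls. Here too replicate 2 alone was far above the controls and replicate 3 lay among them. The difference was 1.34 (SE 0.72), and 0.31 (SE 0.18) without knockdown replicate 2.

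Dlx5 (Entrez 13395) was clearly above the controls in every knockdown array. Its log2 levels were 6.31, 8.73 and 5.40 in the knockdown arrays, against 4.62, 4.73, 4.75 and 4.60 in the controls. Every knockdown array lay above the narrow control range of 0.15 log2 units, by 3.11-fold, 16.6-fold and 1.65-fold over the control mean in replicates 1, 2 and 3. The mean level was 6.81 ± 1.72 (SD, n = 3) in knockdown samples and 4.68 ± 0.078 (SD, n = 4) in controls. The difference was 2.14 (SE 0.69), or 4.40-fold, and 1.18 (SE 0.25), or 2.27-fold, without knockdown replicate 2.

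Dlx6 (Entrez 13396), next to Dlx5, had the same order of arrays. Its log2 levels were 4.79, 6.10 and 4.22 in the knockdown arrays, against 4.03, 3.84, 3.91 and 3.77 in the controls. The difference was 1.15 (SE 0.40), and 0.62 (SE 0.18) without knockdown replicate 2. For both Dlx5 and Dlx6 replicate 1 was the second highest array of the 7 and replicate 3 the third highest.

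Gad2 (Entrez 14417), which encodes the glutamate decarboxylase found mainly at nerve terminals, had log2 levels of 4.43, 6.03 and 4.38 in the knockdown arrays, against 3.84, 3.87, 4.12 and 3.68 in the controls. All knockdown arrays lay above all controls. The difference was 1.07 (SE 0.40), and 0.53 (SE 0.15) without knockdown replicate 2.

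Gad1 (Entrez 14415), the other decarboxylase gene, had log2 levels of 3.54, 3.97 and 3.88 in the knockdown arrays, against 3.98, 3.42, 3.81 and 3.64 in the controls. The groups overlapped fully. The difference was 0.08 (SE 0.17), and -0.007 without knockdown replicate 2. All these levels are dim, and the processing of the arrays compresses differences between dim values. The controls of Dlx6, Gad2, Gsx2 and Slc32a1 were dim too, with means of 3.887, 3.875, 3.987 and 4.107, against 3.714 for Gad1. The part of such compression in the difference of Gad1 was not tested.

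Slc32a1 (Entrez 22348), the vesicular GABA transporter, had log2 levels of 4.28, 4.86 and 4.51 in the knockdown arrays, against 4.18, 4.11, 4.06 and 4.08 in the controls. The controls spread over only 0.13 log2 units, and every knockdown array lay above them. The difference was 0.45 (SE 0.15), and 0.29 (SE 0.12) without knockdown replicate 2.

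Lhx6 (Entrez 16874), a LIM homeobox factor of interneurons from the medial ganglionic eminence, had log2 levels of 4.16, 5.03 and 4.37 in the knockdown arrays, against 4.66, 4.46, 4.48 and 3.99 in the controls. Replicate 2 was again the highest array, while replicates 1 and 3 lay below 3 of the 4 controls. The difference was 0.12 (SE 0.25), and -0.13 (SE 0.20) without knockdown replicate 2. Its sign also turned without control replicate 4 (-0.011). The replicate number as a block gave the same value, because control replicate 4 has no knockdown array of its number and drops out of that difference.

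**Figure D2:**
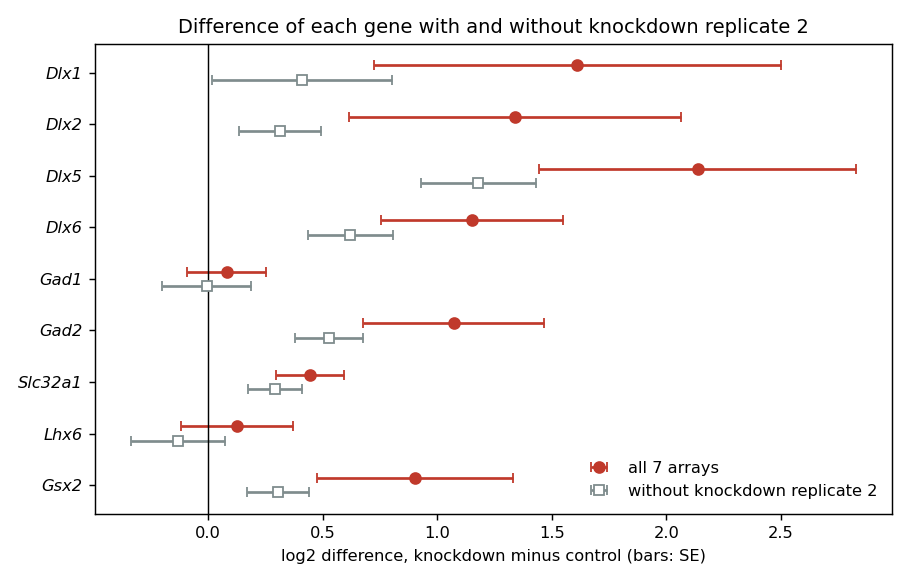
Log2 difference between the group means, knockdown minus control, for each gene (horizontal axis) over all 7 arrays (red circles) and without knockdown replicate 2 (open squares), with standard errors of limma as bars. Dlx5 stands at 2.14 and 1.18, Dlx1 at 1.61 and 0.41, and Gad1 near 0 in both.

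The setting of knockdown replicate 2 among all genes was examined by the gap between its log2 level and the highest of the other 6 arrays, a measure chosen after the values were seen. Of all 19938 genes, Dlx1 had the largest gap (3.27, or 9.67-fold), Dlx2 the next (2.87) and Dlx5 the third (2.42). Gsx2 ranked 8 (1.65), Gad2 ranked 10 (1.60) and Dlx6 ranked 17 (1.31). These 6 were among the 37 genes, 0.186% of all, with a gap of at least 1 log2 unit. Below this limit were Lhx6 (0.37) and Slc32a1 (0.34), and Gad1 had a gap of -0.016. Knockdown replicate 2 was the highest of the 7 arrays for 8 of the 9 genes, and for 9.42% of all genes.

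Knockdown replicate 2 was not the array with the most genes that stand apart. The genes at least 1 log2 unit above every other array were 0.391%, 0.186% and 0.787% of all in knockdown replicates 1, 2 and 3, and 0.216%, 0.0301%, 0.171% and 1.12% in control replicates 1 to 4. The other genes of this kind in knockdown replicate 2, named here after their values were seen, included Dlx1as, a transcript from the opposite strand of the Dlx1 locus, and Isl1, a LIM homeobox factor of striatal neurons. Dlx1as had a level of 6.96 there, against 4.24 and 4.68 in the other knockdown arrays and 3.77 to 5.21 in the controls, and whether its probes also detect Dlx1 was not tested. They also included the macrophage genes Lyve1, Mrc1, Pf4, F13a1 and Lyz2, the chemokines Cxcl10 and Cxcl2, and the fibroblast genes Dcn and Lum.

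**Figure D3:**
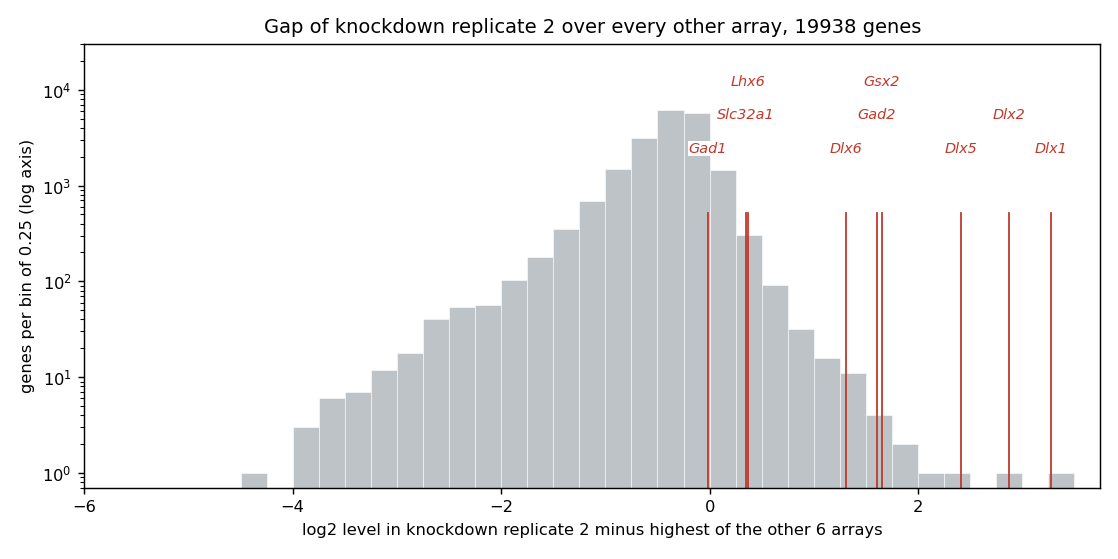
Log2 level in knockdown replicate 2 minus the highest of the other 6 arrays (horizontal axis), as the number of genes per bin on a logarithmic axis, for all 19938 genes. Red lines mark the 9 genes, with Dlx1 (3.27), Dlx2 (2.87) and Dlx5 (2.42) at the right end and Gad1 (-0.016) in the body of the distribution.

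Across the 7 arrays the levels of the 9 genes were correlated mainly through knockdown replicate 2. The median Pearson r of the 36 pairs was 0.898 over 7 arrays and 0.314 over the 6 arrays without it, when 11 pairs were below 0. All pairs share the same arrays and their normalization, so these values are a description. The pair Dlx5 and Dlx6 had an r of 0.995 over 7 and 0.968 over 6 arrays, whereas the pair Dlx1 and Dlx2 had 0.950 and 0.287.

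The mean shift of the 9 genes from their control means was 0.48, 2.17 and 0.30 log2 units in knockdown replicates 1, 2 and 3, and 0.03, 0.02, 0.09 and -0.14 in control replicates 1 to 4. Among 5541 other genes with a mean level of at least 5 and an SD of at least 0.3, the profiles most like this one over 7 arrays were those of Cnnm2 (r = 0.970), Tcf7l2 (0.932), Chac1 (0.932), Coa7 (0.905), Trim36 (0.904), Dok3 (0.900), Dlk1 (0.899) and Mir674 (0.889). Without knockdown replicate 2 their r ranged from 0.841 for Cnnm2 to -0.367 for Mir674. The most opposite profiles were those of Crtc1 (-0.928), Gm5124 (-0.918), Ahdc1 (-0.915) and Nfasc (-0.897). With Dlx1 alone, under the same limits of level and SD, the highest r belonged to Cnnm2 (0.959), Dlx2 (0.950), Ptch1 (0.946), Dlx5 (0.942) and Tcf7l2 (0.942). Gad2 had an r of 0.951 with Dlx1, but its mean level was below the limit and it was not ranked. Cnnm2 had log2 levels of 5.08, 5.98 and 5.04 in the knockdown arrays, against 4.63, 4.81, 5.01 and 4.63 in the controls. The limits of level and SD were set over all 7 arrays, so a high level in knockdown replicate 2 helped a gene to enter. Cnnm2 reached the mean level of 5 only with that array.

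Promoter windows, from 250 bases before to 50 after a gene's start, were available from RefSeq (build GRCm38.p6) for 7 of the 9 genes, Lhx6 with 3 of them, and not for Dlx5 and Dlx6. Shown are those of Dlx2 and Gsx2, both high in knockdown replicate 2, and of Gad2 and Gad1, which encode the same enzyme activity but differed in their elevation. Capitals mark TAAT on either strand (ATTA on the strand shown), the core that homeodomain proteins such as the Dlx factors bind. Dlx2 lies at chr2:71546705-71547004 (minus strand), Gsx2 at chr5:75075351-75075650, Gad2 at chr2:22622077-22622376 and Gad1 at chr2:70561879-70562178 (all plus strand).
Dlx2: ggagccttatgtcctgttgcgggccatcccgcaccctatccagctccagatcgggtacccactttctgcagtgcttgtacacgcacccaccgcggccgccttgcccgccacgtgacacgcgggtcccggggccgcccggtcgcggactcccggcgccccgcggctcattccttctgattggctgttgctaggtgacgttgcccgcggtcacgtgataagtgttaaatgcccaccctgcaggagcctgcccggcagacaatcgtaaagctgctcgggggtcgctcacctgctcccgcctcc
Gsx2: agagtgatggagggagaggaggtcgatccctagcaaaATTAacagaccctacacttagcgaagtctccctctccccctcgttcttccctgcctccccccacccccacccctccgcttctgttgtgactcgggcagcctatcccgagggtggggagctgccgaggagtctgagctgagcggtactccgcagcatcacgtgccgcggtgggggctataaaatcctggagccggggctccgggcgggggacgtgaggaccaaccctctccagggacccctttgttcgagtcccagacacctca
Gad2: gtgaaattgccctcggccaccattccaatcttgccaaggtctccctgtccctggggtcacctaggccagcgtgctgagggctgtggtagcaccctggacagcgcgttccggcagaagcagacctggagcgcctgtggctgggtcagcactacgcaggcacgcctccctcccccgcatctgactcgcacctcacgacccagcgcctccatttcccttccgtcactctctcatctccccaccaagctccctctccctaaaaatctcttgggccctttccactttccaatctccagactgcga
Gad1: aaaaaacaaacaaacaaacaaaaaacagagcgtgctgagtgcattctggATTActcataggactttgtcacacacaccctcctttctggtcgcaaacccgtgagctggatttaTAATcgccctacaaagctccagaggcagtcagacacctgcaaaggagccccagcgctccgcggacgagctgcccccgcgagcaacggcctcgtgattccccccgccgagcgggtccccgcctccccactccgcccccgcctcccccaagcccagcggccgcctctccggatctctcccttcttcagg
The core occurred 0 times in the Dlx2 and Gad2 windows, 1 time in that of Gsx2 and 2 times in that of Gad1. It was also found 0 times in the Dlx1 and Slc32a1 windows and 3 times in 1 of the 3 windows of Lhx6. Of all 32817 promoter windows of this length 58.0% held it. The longer palindrome TAATTA, which contains the core, was in 0 of the 9 windows of these genes and in 5.30% of all windows. The windows of Dlx1, Dlx2, Gsx2, Gad2 and Gad1 held 69.3%, 66.3%, 63.0%, 61.3% and 60.0% G and C, against a median of 52.7% over all windows. That of Slc32a1 held 63.3%, and the 3 of Lhx6 held 63.3%, 55.3% and 48.7%, the last below the median. A match is only a run of letters, and no match says only that these letters are not in the window.

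Among all genes tested, limma called 0 higher and 0 lower (0% each) at an adjusted p under 0.05, with a smallest adjusted p of 0.736, so 0 members of any related list passed. An unadjusted p under 0.05 was reached by 2.20% of genes with a higher and 3.61% with a lower knockdown level. Trnp1 itself, set beside the 9 genes as the check of the labels, was at 4.80, 4.85 and 4.55 in the knockdown arrays, against 5.07, 5.0, 5.24 and 5.22 in the controls , a mean of 4.73 ± 0.16 (SD, n = 3) and of 5.13 ± 0.12 (SD, n = 4). The knockdown mean was 75.8% of the control mean on the linear scale (exact two-sided permutation test p = 0.0286, the smallest that 35 splits allow). Knockdown replicate 2, with the highest Dlx levels, did not have the lowest Trnp1 level.

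Dlx3 and Dlx4, the other Dlx genes measured, were not elevated in knockdown replicate 2. Dlx3, known for its role in skin and placenta, had log2 levels of 5.40, 5.07 and 5.15 in the knockdown arrays, against 5.15, 4.97, 5.37 and 5.13 in the controls. Dlx4 had 4.49, 4.35 and 4.73 in the knockdown arrays, against 4.58, 4.56, 4.26 and 4.26 in the controls. In both genes the groups overlapped and knockdown replicate 2 was not the highest array.

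Other transcription factors of the ganglionic eminences and of interneuron precursors had a median log2 difference of 0.11 over the 21 measured of 24 listed, with 17 higher and 4 lower, and 0.10 without knockdown replicate 2. Knockdown replicate 2 was the highest array for 7 of the 21, against 9.42% of all genes. It exceeded all others by 1 log2 unit for 0 of the 21, against 0.186% of all genes. The largest gaps over every other array, named after the values were seen, were those of Vax1 (0.72), Prox1 (0.51) and Olig2 (0.38). Lhx8, a factor of the medial ganglionic eminence, differed by 0.19 (SE 0.11), and Sp9, a zinc finger factor of striatal and interneuron precursors, by 0.20 (SE 0.12). The orphan receptor Nr2f2, a factor of the caudal ganglionic eminence, had levels of 9.37, 8.98 and 7.19 in the knockdown arrays, against 6.77, 8.98, 5.40 and 7.91 in the controls (1.25, SE 0.88). By limma 0 of the 21 had an unadjusted p under 0.05.

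Genes of the lateral ganglionic eminence and of striatal neurons had a median difference of 0.013 over 17 measured of 19 listed, 9 higher and 8 lower. Isl1 was highest in knockdown replicate 2, with 3.96, 5.21 and 3.79 in the knockdown arrays, against 3.91, 3.61, 3.79 and 3.68 in the controls (0.57, SE 0.33, and 0.13 without knockdown replicate 2). The dopamine receptor gene Drd1 differed by 0.22 (SE 0.13). Penk, which encodes proenkephalin, was lower in every knockdown array than in any control (-0.67, SE 0.18), with an unadjusted p of 0.00651 and an adjusted p of 0.825 by limma.

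Markers of mature interneuron classes had a median difference of 0.05 over 15 of 15 genes, 9 higher and 6 lower, and knockdown replicate 2 was the highest array for 0 of them. Sst, which encodes somatostatin, was high in replicate 3 instead, with 4.91, 4.63 and 6.97 in the knockdown arrays, against 4.96, 4.69, 5.02 and 4.39 in the controls. Reln, the reelin gene of Cajal-Retzius cells and some interneurons, was likewise at 5.05, 5.02 and 7.68 in the knockdown arrays, against 5.16, 5.02, 4.72 and 4.90 in the controls. The array with high Sst and Reln was thus not the array with high Dlx1, Dlx2 and Gad2. Calb1, which encodes calbindin, differed by 0.50 (SE 0.18) and was the 1 gene of this list with an unadjusted p under 0.05 by limma.

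Genes of GABA uptake, breakdown and synaptic anchoring had a median difference of 0.12 over 9 measured of 11, and its sign turned when knockdown replicate 2 (-0.15) or knockdown replicate 3 (-0.023) was left out. The glutamine transporter Slc38a1 differed by -0.34 (SE 0.14). Genes of tangential migration had a median of 0.11 over 22 of 22, 14 higher and 8 lower. Among them Robo1, a Slit receptor, was at 6.54, 7.59 and 7.40 in the knockdown arrays, against 6.61, 6.14, 6.21 and 6.74 in the controls (0.75, SE 0.28). Its ligand gene Slit1 differed by 1.23 (SE 0.37), and the chemokine receptor Cxcr4 by 0.11 (SE 0.18). Nrp1, which encodes the semaphorin receptor neuropilin 1, had the largest difference of the list and went the other way, with 7.05, 6.94 and 6.23 in the knockdown arrays, against 7.99, 7.60, 8.09 and 8.78 in the controls (-1.38, SE 0.31). Cntn2, a cell adhesion gene, differed by -1.26 (SE 0.435), and the ephrin receptor gene Epha4 by -0.35 (SE 0.18). By limma 2 migration genes were higher and 2 lower at an unadjusted p under 0.05, and in the GABA handling list 1 was lower.

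Factors and transporters of dorsal cortical cells had a median difference of -0.32 over 14 measured of 16, 10 lower and 4 higher, and -0.22 without knockdown replicate 2. Their mean log2 level was 8.59, 8.13 and 8.43 in the knockdown arrays, against 8.80, 8.77, 8.85 and 8.53 in the controls, so markers of the labelled tissue were present in every array, with the lowest mean in knockdown replicate 2. Of the 14 genes 7 had their lowest level in knockdown replicate 2 (13.9% of all genes did), 5 in knockdown replicate 3 and 2 in control replicate 4. The T-box factors Eomes and Tbr1 were among the 7, at 9.86 and 9.57 in knockdown replicate 2, while the LIM homeobox factor Lhx2 was lowest in knockdown replicate 3 (9.71).

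The groups did not overlap for 5 of the 14 dorsal genes, all lower in knockdown samples, against 3.07% of all genes. By limma the same number were lower at an unadjusted p under 0.05, against 3.61% of all genes. As this and the other lists were chosen with earlier results of these data known, nothing is read from such shares. Neurod1, a factor of young glutamatergic neurons, had log2 levels of 7.64, 7.45 and 6.98 in the knockdown arrays, against 8.74, 8.86, 8.75 and 8.87 in the controls (-1.45, SE 0.17, adjusted p = 0.736 by limma). For Neurod2 the difference was -0.59 (SE 0.16), and for Neurod6, of the same family, -0.71 (SE 0.13). Slc17a6, a vesicular glutamate transporter, differed by -0.63 (SE 0.16). These 4 genes had their lowest level in knockdown replicate 3. Emx1, the other of the 5 genes, was lowest in knockdown replicate 2, the array with the highest Dlx levels. It had 7.68, 7.26 and 7.58 in the knockdown arrays, against 7.85, 7.91, 7.85 and 7.85 in the controls (-0.36, SE 0.12).

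Markers of other cell types also varied between arrays. Choroid plexus and hem genes (8 of 8 measured) had mean log2 levels of 3.89, 5.79 and 3.79 in the knockdown arrays, against 3.80, 3.86, 4.53 and 7.02 in the controls. Ttr, the main secreted protein of the choroid plexus, was at 11.98 in knockdown replicate 2, and at 12.55 in control replicate 4 and 9.86 in control replicate 3. In knockdown replicate 2 Ttr, Otx2 and Clic6 exceeded their control means, which include control replicate 4, by 4.36, 2.62 and 0.98 log2 units. Kl and Folr1 exceeded theirs by 0.28 and 0.14, and Msx1, Wnt3a and Rspo2 lay below theirs (-0.45, -0.043 and -0.032). Control replicate 4, with more choroid plexus signal than knockdown replicate 2, had Dlx1, Dlx2 and Dlx5 at 4.26, 5.02 and 4.60, within the range of the other controls or, for Dlx5, just below it. This is 1 library, and the part of choroid plexus or hem tissue in the Dlx levels of knockdown replicate 2 was not tested.

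Microglia and macrophage genes (8 of 8) had means of 6.95, 7.95 and 6.69 in the knockdown arrays, against 7.10, 5.94, 6.20 and 8.46 in the controls. Endothelial and mural genes (8 of 8) had means of 7.34, 6.13 and 5.10 in the knockdown arrays, against 4.61, 4.57, 4.21 and 6.57 in the controls. Erythroid genes (5 of 8) had means of 7.09 to 8.05 in the knockdown arrays, against 6.64 to 7.83 in the controls. In each of these 3 lists control replicate 4 was above the other controls, and its mean over the 9 Dlx and GABA genes was the lowest of the 4 (4.13). The part of these cell types in the Dlx levels was not tested. The mean of the mesenchymal genes (8 of 8) was highest in knockdown replicate 2 (4.63, against 4.02 to 4.16 in the controls). There Dcn and Lum exceeded their control means by 1.70 and 1.62 log2 units, and the other genes of the list by at most 0.23. Of the 8 genes 3 were highest in that array. The part of mesenchymal cells in its Dlx levels was likewise not tested. Postmitotic neuron genes (10 of 10) had means of 7.59, 8.01 and 8.49 in the knockdown arrays, against 7.85, 8.05, 8.10 and 7.98 in the controls, so knockdown replicate 2 was near the controls in these. Cajal-Retzius genes (8 of 8, 4.98 to 5.27 in the knockdown arrays, against 4.90 to 5.12 in the controls) and glial genes (8 of 8, 3.94 to 4.04, against 3.84 to 4.05) had similar mean levels in all arrays, although Reln in knockdown replicate 3 and Trp73 in control replicate 4 (5.90) stood apart within the Cajal-Retzius list.

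**Figure D4:**
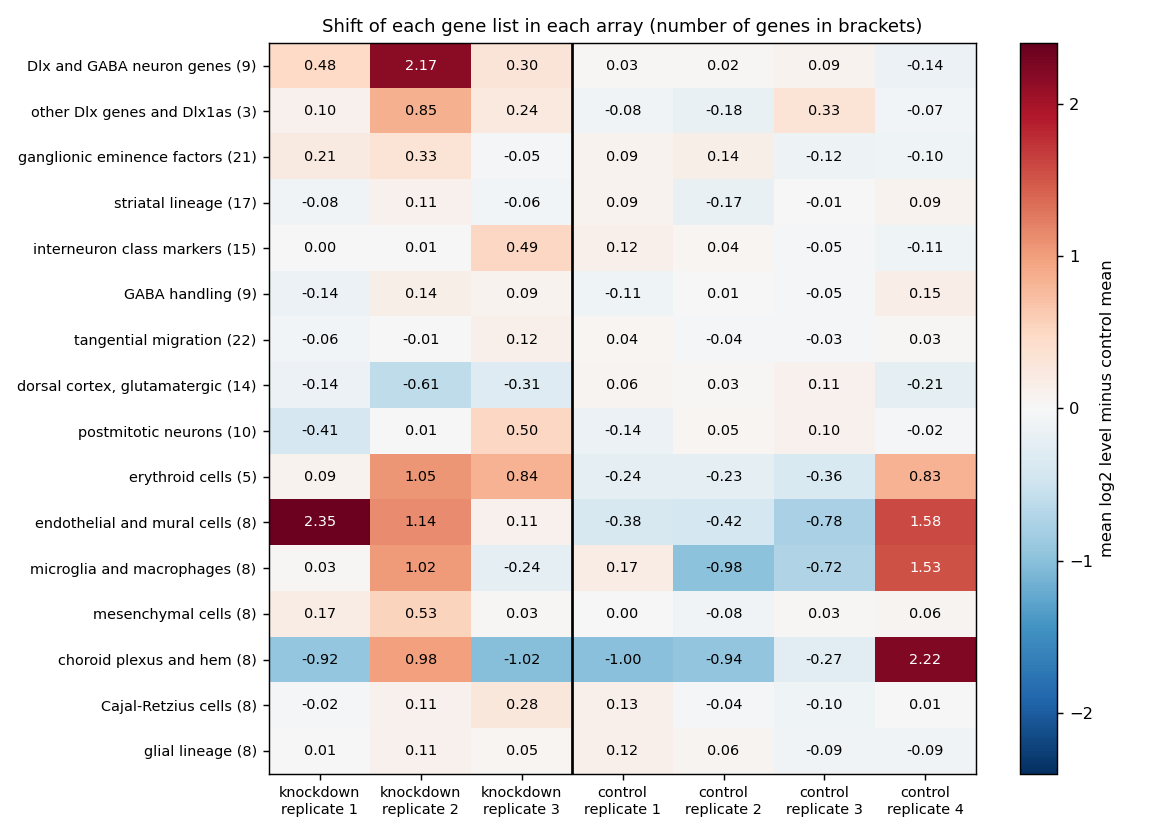
Mean over each gene list (rows, number of genes in brackets) of the log2 level minus the control mean, in the 3 knockdown arrays (left of the line) and the 4 control arrays (right). The 9 Dlx and GABA genes shift by 2.17 in knockdown replicate 2, the choroid plexus list by 0.98 there and by 2.22 in control replicate 4, and the dorsal list by -0.61 in knockdown replicate 2.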

How the data were processed

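RNA of sorted cells was labelled after whole-transcriptome amplification, per the labels' protocols, and hybridised to 7 Affymetrix arrays, 3 knockdown and 4 control. The authors deposited log2 values. RMA and Expression Console 1.2 are named, per the submitters' processing notes. RMA normalizes between arrays and shrinks differences among dim values. The number of arrays limits the precision. Each gene was represented by its brightest probe set with 1 symbol, updated through Entrez identifiers in RefSeq GRCm38.p6 (names only).

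Knockdown was compared with control over 19938 genes by limma 3.58.1 in R 4.3.3 (lmFit, eBayes without trend), adjusted by Benjamini-Hochberg over all genes, and tested on simulated data. The 9 genes, the 15 other lists and the naming rule (per list up to 4 genes with the highest level and up to 4 with the smallest p) were chosen with earlier results of these data known. Alternatives covered the prior, array weights, normalization, dim genes, probe sets, the replicate block and arrays left out.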

Additional observations from a re-analysis of the deposited data

Results flagged for a closer look

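The controls were searched for an array whose gap to the nearest other control was large for the range of the 4. Of 114 genes and lists examined 12 met this limit, where chance gives about 1 in 20. None was among the 9 Dlx and GABA genes, and the 3 knockdown arrays are too few to be examined this way. Control replicate 4 was apart for the choroid plexus and hem genes Folr1 (7.86), Otx2 (8.18) and Msx1 (7.29), the mural gene Rgs5 (7.49), the Cajal-Retzius gene Trp73 (5.90), the striatal and cortical factor Etv1 (6.23) and the neuronal tubulin Tubb3 (10.53). The same array was apart for the mean level of the erythroid (7.83) and endothelial (6.57) lists. Control replicate 1 was apart for Crhbp (4.35), Lhx2 (10.9) and Olig1 (4.55).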

How the results depend on the processing

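Limma called 0 genes under all 20 alternatives. The median log2 difference of the 9 genes was 1.07 and moved to 0.31 without knockdown replicate 2 and to 0.29 without that array and control replicate 4, an alternative chosen after seeing the data. With 1 array left out it ranged from 0.31 to 1.36, and the Trnp1 difference from -0.46 to -0.31. With the replicate number as a block the median was 1.01, the Trnp1 difference was -0.37 and no longer passed (unadjusted p = 0.0784 by limma), and 0 genes were called. Control replicate 4 has no knockdown array of its number and drops out of the differences with this block. They therefore equal those with control replicate 4 left out and are not a separate alternative to them. The labels do not say whether same-numbered arrays share a litter or day. Correlations of their deviations were 0.028, -0.051 and 0.072, which cannot exclude it. The other normalizations gave medians of 0.97 to 1.02. With the dimmest 50% of genes left out only Dlx1, Dlx2 and Dlx5 remained, with a median of 1.61. Dim genes were set by the mean level over all arrays, so high levels in knockdown arrays helped a gene to stay. The differences of these genes were unchanged, and the higher median only reflects which genes stayed. It is therefore no check of the median of 1.07. Of the 9 genes, Gad1 and Lhx6 changed sign under some alternatives, Gad1 to -0.017 when control replicate 2 was left out, to -0.007 when knockdown replicate 2 was, and to -0.033 when knockdown replicate 2 and control replicate 4 both were, and Lhx6 to -0.27 in the last case. The median of the striatal list turned to -0.071 when control replicate 2 was left out and that of the interneuron markers to -0.018 when control replicate 3 was. Each of the 9 genes has 1 probe set, so the choice between probe sets left them as they were.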

Other observations

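Beside the Dlx genes, the genes that stood highest in knockdown replicate 2 relative to every other array included genes of inflammation and of macrophages, named after their values were seen. Saa3, an acute-phase protein gene, had log2 levels of 7.76, 9.85 and 5.49 in the knockdown arrays, against 6.10, 3.99, 3.97 and 6.77 in the controls. Lyve1, a receptor of lymphatic vessels and some macrophages, had 4.33, 6.97 and 4.75 in the knockdown arrays, against 4.63, 4.80, 4.39 and 5.01 in the controls. The chemokine gene Cxcl2 had 7.0, 9.38 and 3.43 in the knockdown arrays, against 8.10, 3.69, 3.70 and 8.0 in the controls.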
